A study of Mus musculus with 26 samples.

Results

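Fibronectin, the integrins and the laminins are the matrix ligands and receptors by which a neural stem cell holds on to its surroundings. The genes described here were taken by name: 33 genes of the 23152 measured, made up of fibronectin (Fn1), 12 integrin alpha chains, 8 integrin beta chains, 10 laminin chains and 2 nidogens. A gene's value was the mean log2 signal of all probe sets whose annotation names that gene alone, and the 33 genes were covered by 951 of the 269751 probe sets on the array, 12 to 68 for each gene. All 33 were measured on all 26 arrays, and none was left out for low signal.

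Every sample was a culture of neural stem cells taken from C57BL6 wild-type mouse embryos at E14.5, in which genes were expressed from lentivirus. In the pool set, cells of pools 1, 2 and 3 carried MYBtr, MYBQKI5, MYBQKI6 or QKItr (3 arrays each) or the control protein eGFP (6 arrays, 2 repeats of each pool, which were averaged so that n = 3). In the suppression set all 8 samples carried MYBQKI6, with Qk suppressed in 5 and LacZ, a bacterial gene that mouse cells lack, in 3. MYB is a DNA-binding transcription factor, QKI is an RNA-binding protein, and MYBQKI is their fusion, found in a childhood glioma. The labels do not spell out what tr stands for. They do not say whether pools or numbered samples were separate animals, and the p-values therefore speak of the spread among these samples, which may be technical.

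An integrin is a pair of 1 alpha and 1 beta chain that spans the cell membrane and ties the matrix outside to the actin cytoskeleton inside. The pairing decides the ligand: alpha5 with beta1 is the main fibronectin receptor, alphav with several beta chains also reads the RGD motif of fibronectin, and alpha3 or alpha6 with beta1 binds laminins. In the embryonic brain laminins and their receptors hold the end-feet of radial glia at the basement membrane, and beta8 paired with alphav activates latent TGF-beta. Each laminin is a trimer of an alpha, a beta and a gamma chain, and the nidogens link laminin to the collagen network.

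With MYB in the construct, Fn1 and its receptor chain Itga5 had higher signal than in eGFP cells in every pool, and Itgb8 had lower signal in every pool. With MYBtr these 3 genes passed the test: Fn1 rose 8.29-fold, Itga5 rose 3.06-fold and Itgb8 was 2.42-fold lower. None of the 33 genes passed with QKItr, which has no MYB in its name, but 0 of all 23152 genes did. None passed between Qk and LacZ suppression, where 1 of all 23152 did and Qk itself was not called. The common beta chain Itgb1, all 10 laminin chains and both nidogens did not pass against eGFP with any construct.

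A gene was called where its adjusted p was under 0.05 (limma, Benjamini-Hochberg over all 23152 genes of a comparison). With MYBtr against eGFP, 2 of the 33 genes were called higher, beside 0.898% of all genes, and 1 was called lower, beside 0.471%. Arrays of the same pool number deviated together, so the fit was also made with the pool as a block, which takes out differences between pools that all constructs share. With this replicate block, 4 genes were higher (Fn1, Itga3, Itga5 and Itga9) and 2 lower (Itga4 and Itgb8) with MYBtr, beside 3.33% and 2.64% of all genes. The numbers were the same 4 and 2 with MYBQKI5, beside 1.27% and 1.36%, and with MYBQKI6, beside 2.4% and 2%, and the genes were the same 6. Without the block no gene of the 33 was called with MYBQKI5 or MYBQKI6, beside 0.199% and 0.765% of all genes in either direction. At an unadjusted p under 0.05 there were 7 genes with MYBtr, 6 with MYBQKI5 and 7 with MYBQKI6 without the block. Of all 23152 genes there were 2186, 1575 and 1811. The median log2 fold change over the 33 genes was -0.05, -0.07 and -0.03 with MYBtr, MYBQKI5 and MYBQKI6, beside -0.014, -0.0066 and -0.0049 over all genes. These comparisons share the eGFP samples, so their likeness is not a separate observation.

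**Figure D1:**
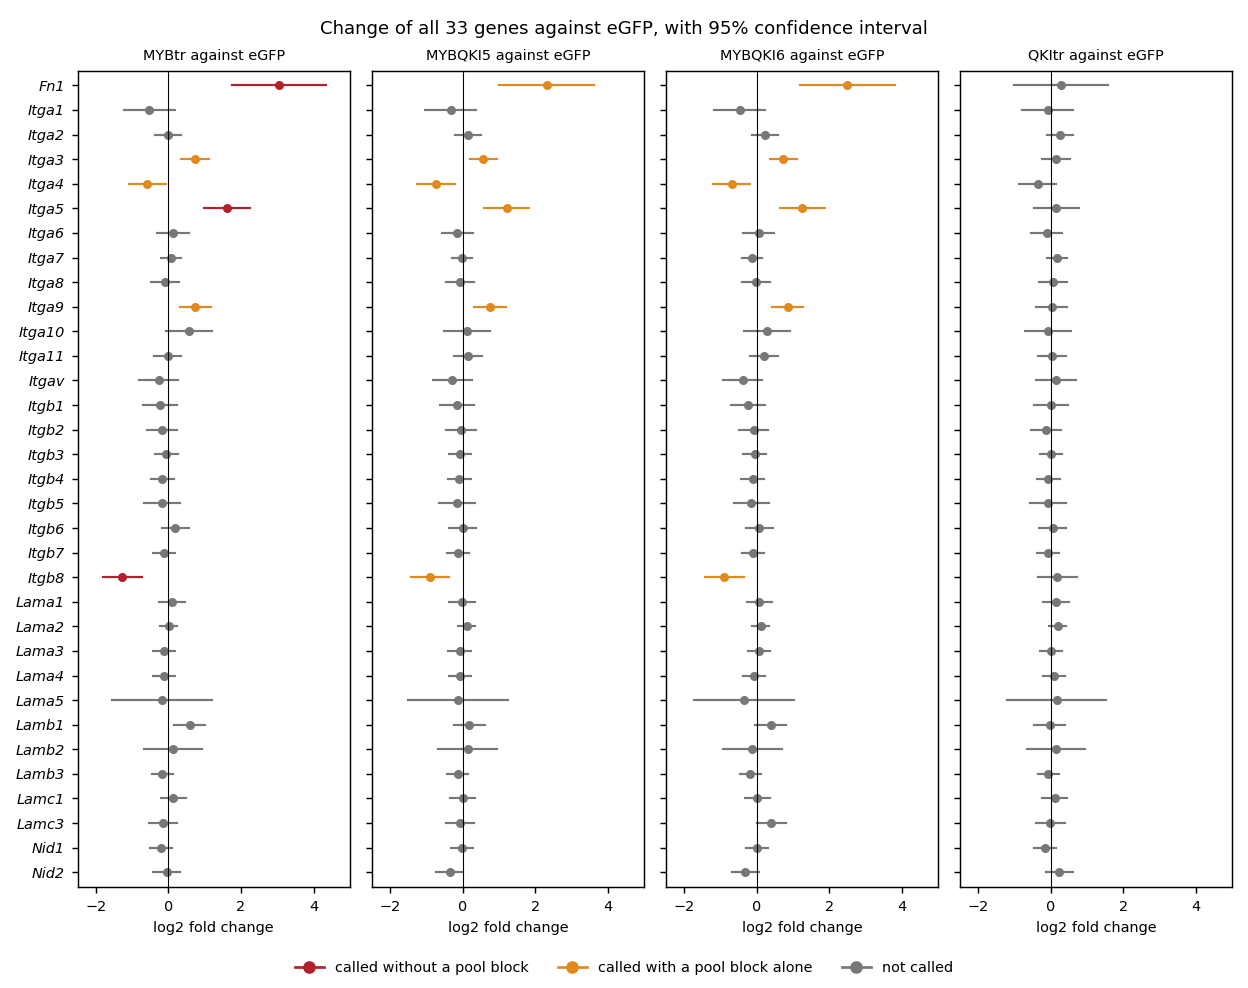
Log2 fold change against eGFP (x axis) of each of the 33 genes (y axis), one panel per construct; points are differences of means over 3 pools, bars 95% confidence intervals from the fit without a pool block, and colours the calls without the block, with the block alone, or neither. Fn1 and Itga5 lie to the right with the 3 MYB constructs, Itgb8 lies to the left, and no point in the QKItr panel is beyond 0.36 in size.

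The promoter windows of Itga5, Itga3 and Itgb8 are printed because MYB binds DNA and these genes were among the 6 called: 2 with higher and 1 with lower signal. The reference used listed no promoter window for Fn1. Each window runs from 250 bases before to 50 bases after the gene's start and is credited to RefSeq (GRCm38.p6). Capitals mark AACNG, the core of the motif MYB is known to bind, searched on both strands. Itga5 lies at chr15:103366742-103367041, Itga3 at chr11:95076665-95076964 (the farther upstream of 2 listed starts) and Itgb8 at chr12:119238227-119238526, all on the minus strand.
Itga5: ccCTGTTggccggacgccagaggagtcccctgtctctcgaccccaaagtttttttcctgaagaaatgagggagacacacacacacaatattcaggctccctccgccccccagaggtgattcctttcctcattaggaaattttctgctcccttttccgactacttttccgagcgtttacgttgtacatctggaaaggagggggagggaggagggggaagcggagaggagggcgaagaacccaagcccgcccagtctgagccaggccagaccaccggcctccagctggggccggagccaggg
Itga3: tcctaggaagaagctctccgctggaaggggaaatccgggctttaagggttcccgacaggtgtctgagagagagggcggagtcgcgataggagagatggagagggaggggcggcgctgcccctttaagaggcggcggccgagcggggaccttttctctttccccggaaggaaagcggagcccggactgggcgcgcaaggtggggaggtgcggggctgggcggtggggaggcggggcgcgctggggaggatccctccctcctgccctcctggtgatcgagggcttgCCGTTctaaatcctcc
Itgb8: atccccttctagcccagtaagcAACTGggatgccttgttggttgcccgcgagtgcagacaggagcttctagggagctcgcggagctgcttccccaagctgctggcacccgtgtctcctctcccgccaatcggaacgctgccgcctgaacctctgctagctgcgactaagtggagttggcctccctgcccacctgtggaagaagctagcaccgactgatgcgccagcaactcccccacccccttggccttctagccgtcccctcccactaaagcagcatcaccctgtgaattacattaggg
Each window held 1 match, on the gene's own strand in Itgb8 and on the other strand in Itga5 and Itga3. Such a core occurs in 80.3% of the 32851 promoter windows listed, so holding it does not set these genes apart. The longer form CAACNG, which contains the core, was in the Itga5 and Itgb8 windows and in 35.0% of all windows. The form TAACNG was in none of the 3 and in 23.3% of all windows.

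Fn1 encodes fibronectin, the secreted ligand. In pools 1, 2 and 3 its log2 signal was 10.49, 10.99 and 10.14 with MYBtr, 8.94, 10.37 and 10.12 with MYBQKI5, and 9.68, 10.61 and 9.66 with MYBQKI6. It was 6.27, 8.40 and 8.64 with QKItr and 6.29, 8.13 and 8.04 with eGFP. All 9 samples with a MYB construct were above all 6 samples with QKItr or eGFP, and the QKItr and eGFP samples overlapped. Of all genes, 7.03%, 4.94% and 6.62% lay wholly above eGFP with MYBtr, MYBQKI5 and MYBQKI6, and 7.44%, 6.3% and 6.51% wholly below. Wholly above QKItr with all 3 MYB constructs were 2.75% of all genes, and wholly below were 2.43%. The lowest MYB value, 8.94, came from pool 1, where the eGFP value was also at its lowest.

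Against eGFP, the log2 fold change of Fn1 was 3.05 ± 0.61 (SE, n = 3 pools a group) with MYBtr, with an adjusted p of 0.0248. It was 2.32 with MYBQKI5 (adjusted p = 0.179, and 0.00568 with the pool block) and 2.50 with MYBQKI6 (adjusted p = 0.0869, and 0.00210 with the block), each with an SE of 0.61. With QKItr it was 0.28, with a 95% interval of -1.02 to 1.59. The difference within a pool was largest in pool 1 with MYBtr, at 4.20, against 2.86 in pool 2 and 2.10 in pool 3. All 41 probe sets of Fn1 were more than 1 log2 unit higher with each MYB construct, between 2.41 and 4.39 with MYBtr, while with QKItr they ran from -0.54 to 1.02.

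Itga5 encodes the alpha5 chain, which with beta1 forms the fibronectin receptor. Its log2 signal in pools 1, 2 and 3 was 7.59, 7.96 and 7.64 with MYBtr, 6.74, 7.47 and 7.78 with MYBQKI5, and 6.91, 7.93 and 7.29 with MYBQKI6. With QKItr it was 6.34, 6.35 and 6.11, and with eGFP 5.88, 6.63 and 5.84. Here too every MYB sample was above every QKItr and eGFP sample, by a small margin for MYBQKI5 in pool 1 (6.74) over eGFP in pool 2 (6.63).

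The log2 fold change of Itga5 against eGFP was 1.61 ± 0.29 with MYBtr (SE, n = 3; adjusted p = 0.0171). With MYBQKI5 it was 1.21 (adjusted p = 0.133, and 0.00960 with the block) and with MYBQKI6 1.26 (adjusted p = 0.0685, and 0.00452 with the block). With QKItr it was 0.15, with a 95% interval of -0.48 to 0.77. As all MYB samples were above all eGFP samples for both genes, both were higher in each MYB sample than in the eGFP sample of its pool. These differences share the eGFP values and ran from 1.62 to 4.20 for Fn1 and from 0.84 to 1.94 for Itga5. Their sizes did not run together: with each MYB construct the difference was largest in pool 1 for Fn1 and in pool 3 for Itga5. Of the 19 Itga5 probe sets, 19, 18 and 19 were higher with the MYB constructs in the same order, and 11 in QKItr cells.

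**Figure D2:**
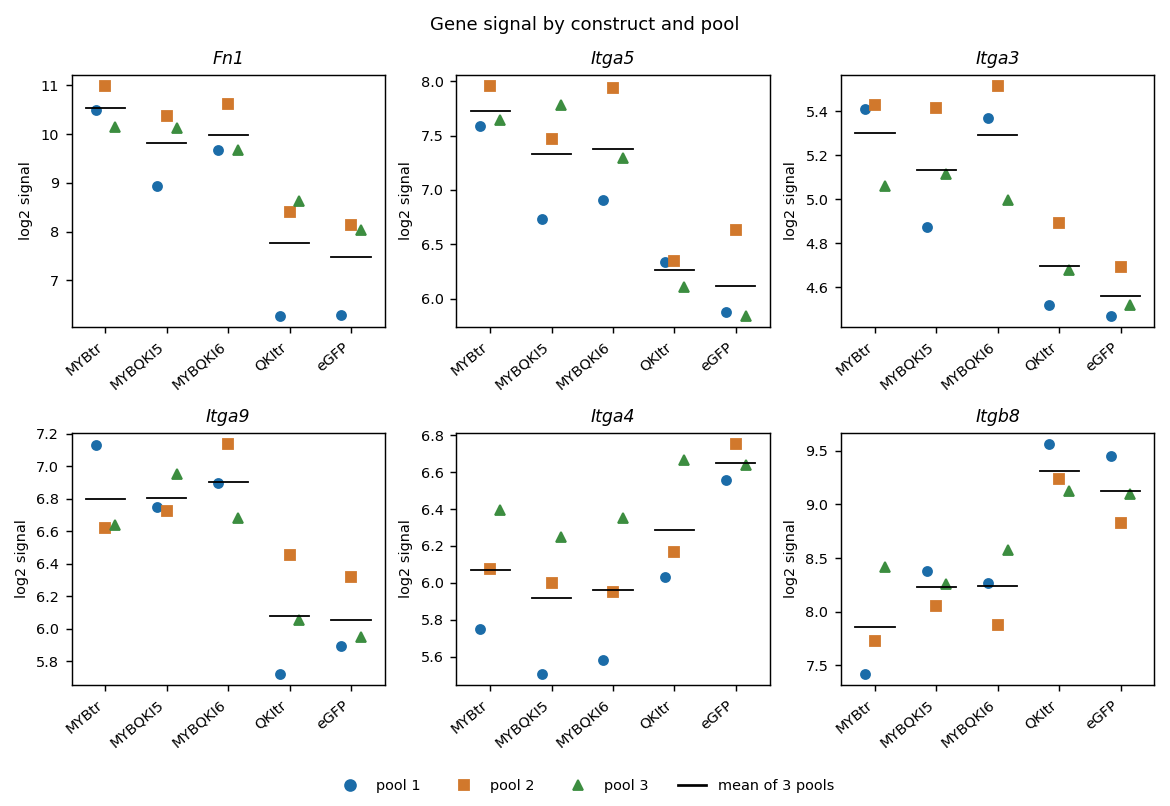
Log2 signal (y axis) of the 6 called genes in each construct group (x axis); each marker is 1 pool (eGFP: mean of 2 repeats) and the line the mean of the 3 pools. Fn1, Itga5, Itga3 and Itga9 sit higher and Itga4 and Itgb8 lower in the 3 MYB groups than in eGFP, with no overlap between a MYB group and eGFP. Such separation in 1 direction was found in 4.94% to 7.44% of all genes, depending on construct and direction.

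Among the other alpha chains, Itga3 and Itga9 had higher and Itga4 lower signal with each MYB construct, all called with the pool block alone. Itga3, a laminin receptor chain, had 5.41, 5.43 and 5.06 in pools 1 to 3 with MYBtr, 4.87, 5.41 and 5.11 with MYBQKI5, and 5.37, 5.51 and 5.00 with MYBQKI6. It had 4.52, 4.89 and 4.68 with QKItr and 4.47, 4.69 and 4.52 with eGFP. No MYB group overlapped eGFP, while MYBQKI5 in pool 1 (4.87) lay below QKItr in pool 2 (4.89). The log2 fold changes against eGFP were 0.74 with MYBtr (adjusted p = 0.0597, and 0.00447 with the block), 0.57 with MYBQKI5 (0.315, and 0.0338 with the block) and 0.73 with MYBQKI6 (0.0830, and 0.00621 with the block). Of its 27 probe sets, 22, 23 and 23 were higher with MYBtr, MYBQKI5 and MYBQKI6, so some did not share the gene's direction.

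Itga9, whose product binds tenascin-C and the spliced-in EDA segment of fibronectin, had 7.13, 6.62 and 6.64 with MYBtr, 6.75, 6.72 and 6.95 with MYBQKI5, and 6.90, 7.13 and 6.68 with MYBQKI6. It had 5.72, 6.46 and 6.06 with QKItr and 5.89, 6.32 and 5.95 with eGFP. Every MYB sample was above every QKItr and eGFP sample. The log2 fold changes against eGFP were 0.74, 0.75 and 0.85 with MYBtr, MYBQKI5 and MYBQKI6, with adjusted p of 0.107, 0.191 and 0.0781, and of 0.0306, 0.0489 and 0.0189 with the block.

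Itga4, the alpha4 chain that binds VCAM-1 and a splice segment of fibronectin, had 5.75, 6.08 and 6.39 with MYBtr, 5.51, 6.00 and 6.25 with MYBQKI5, and 5.58, 5.95 and 6.35 with MYBQKI6. With QKItr it had 6.03, 6.17 and 6.67, and with eGFP 6.56, 6.75 and 6.64. The eGFP samples were above all MYB samples, and QKItr lay between, overlapping both. The log2 fold changes were -0.58, -0.73 and -0.69 with MYBtr, MYBQKI5 and MYBQKI6 (adjusted p = 0.421, 0.375 and 0.329, and 0.0200, 0.0112 and 0.00997 with the block). It was -0.36 with QKItr, and the mean of the 3 MYB constructs over QKItr was -0.30, not called without or with the block (adjusted p = 0.573 and 0.0984).

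The remaining 8 alpha chains (Itga1, Itga2, Itga6, Itga7, Itga8, Itga10, Itga11 and Itgav) were called against eGFP with no construct. Itga6, a laminin receptor chain much used to sort neural stem cells, had group means of 8.54 to 8.82 over the 5 construct groups. Itgav, the partner of beta1, beta3, beta5, beta6 and beta8, had group means of 9.52 to 10.0, with log2 fold changes of -0.26, -0.28 and -0.38 for MYBtr, MYBQKI5 and MYBQKI6 over eGFP. The collagen receptor chain Itga1 was -0.52, -0.33 and -0.47, and the collagen receptor chain Itga10 was 0.58, 0.13 and 0.28, in the same order. Itga2 and Itga11, also collagen receptor chains, Itga7, a laminin receptor chain of muscle, and Itga8, a nephronectin receptor chain, stayed between -0.13 and 0.22 with the MYB constructs.

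Itgb8 was the only beta chain called. Its log2 signal in pools 1, 2 and 3 was 7.42, 7.73 and 8.42 with MYBtr, 8.38, 8.05 and 8.26 with MYBQKI5, and 8.27, 7.87 and 8.58 with MYBQKI6. With QKItr it was 9.56, 9.23 and 9.13, and with eGFP 9.46, 8.83 and 9.10. All 9 MYB samples were below all 6 others, and the order of pools was not the same in the groups. The log2 fold change against eGFP was -1.27 ± 0.25 with MYBtr (SE, n = 3; adjusted p = 0.0225), -0.90 with MYBQKI5 (adjusted p = 0.218, and 0.0400 with the block), -0.89 with MYBQKI6 (0.159, and 0.0290 with the block) and 0.18 with QKItr. All 18 probe sets of Itgb8 were lower with each of the 3 MYB constructs, and 17 were higher with QKItr.

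The other 7 beta chains did not pass. Itgb1, the partner that alpha5 and most alpha chains share, had group means of 9.07 to 9.30, and its log2 fold changes against eGFP were -0.23, -0.17 and -0.23 with MYBtr, MYBQKI5 and MYBQKI6. The interval with MYBtr was -0.70 to 0.24, so a rise of Itgb1 as large as that of Itga5 lay outside it. Itgb5, which pairs with alphav, was -0.18, -0.16 and -0.15. Itgb2 and Itgb7 of white blood cells, Itgb3 of platelets, and Itgb4 and Itgb6 of epithelia had group means of 5.08 or less, and Itgb6 was below the 25th percentile of gene signal in every group.

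**Figure D3:**
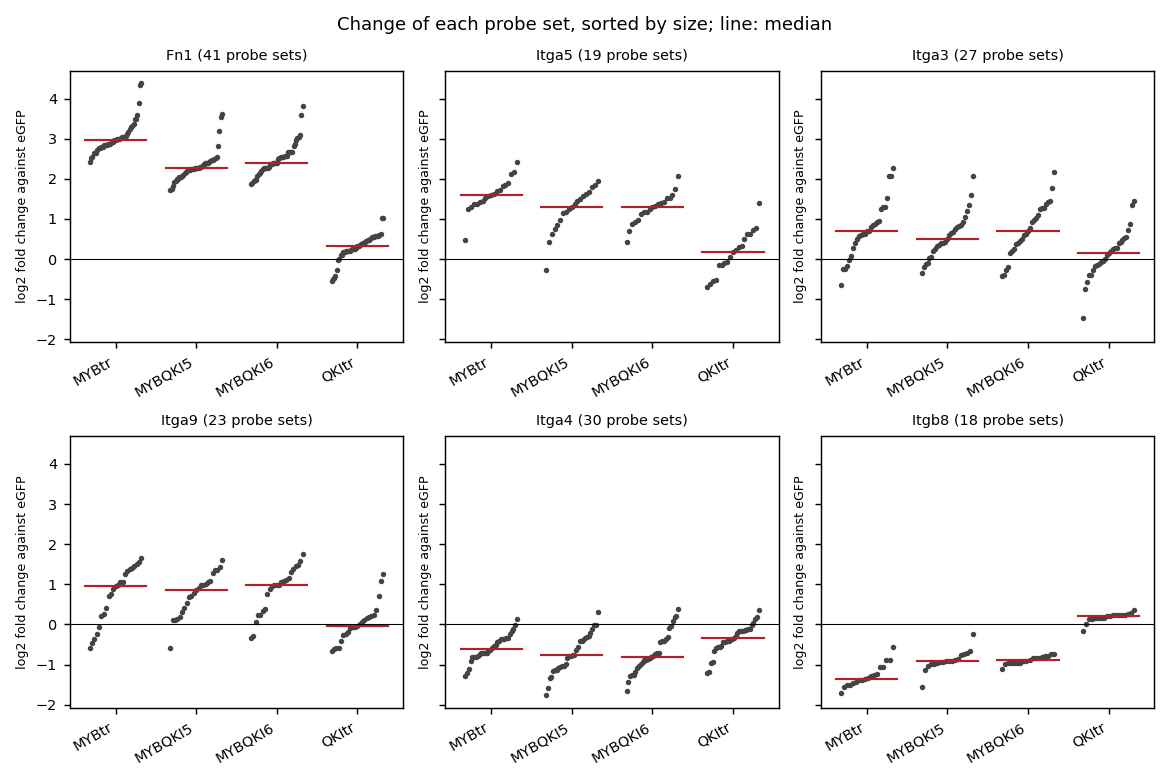
Log2 fold change against eGFP (y axis) of each probe set of the 6 called genes, sorted within each construct (x axis), with the median as a line. With the MYB constructs all 41 Fn1 probe sets lie above 1 and all 18 Itgb8 probe sets lie below 0. Those of Itga3, Itga9 and Itga4 lie on both sides of 0 with each MYB construct, and 1 of Itga5 lies below 0 with MYBQKI5.

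Whether single probe sets departed from their gene was tested on each probe set minus the mean of the gene's other probe sets, with a spread of its own for each probe set. None of the 951 probe sets was called for any of the 4 constructs against eGFP, which run in the order MYBtr, MYBQKI5, MYBQKI6, QKItr, beside 0.00994%, 0.00302%, 0.00562% and 0.000432% of the 231434 probe sets tested, or with Qk suppression, beside 0%. At an unadjusted p under 0.05 there were 46, 31, 41, 38 and 67 of the 951 in these comparisons. In percent of each set these were 4.84, 3.26, 4.31, 4.00 and 7.05 of the 951, beside 3.84, 3.37, 3.09, 3.06 and 6.81 of all.

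No laminin chain was called with any construct. Lamb1, the beta1 chain, came nearest with MYBtr: its log2 signal was 8.30, 8.19 and 7.66 in pools 1, 2 and 3 with MYBtr, against 7.32, 7.65 and 7.42 with eGFP. These groups did not overlap, though by a small margin, beside 7.03% of all genes wholly higher with MYBtr. The log2 fold change of 0.59 had an adjusted p of 0.255, and of 0.0686 with the block. Lamc1, the gamma1 chain of most laminins, differed little, with group means of 9.22 to 9.36 and log2 fold changes of 0.13, 0.01, 0.02 and 0.11 for MYBtr, MYBQKI5, MYBQKI6 and QKItr. Lamc3 was 0.41 higher with MYBQKI6 than with eGFP (5.04, 5.11 and 4.79, against 4.62, 4.54 and 4.56), not called without or with the block. The chains Lama1, Lama2, Lama3, Lama4 and Lamb3 stayed between -0.17 and 0.12 with the MYB constructs, and Lama4 was below the 25th percentile in several groups.

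Lama5 and Lamb2 varied between pools and were not called. Their means over the 5 construct groups were 7.25 to 7.76 and 7.50 to 7.76. Of the 68 Lama5 probe sets, 50, 42 and 64 were lower than in eGFP with MYBtr, MYBQKI5 and MYBQKI6, and 16 with QKItr. Lama5, the alpha5 laminin chain, had 6.26 to 6.59 in pool 1 over all 5 construct groups, against 7.62 to 8.38 in pools 2 and 3. Lamb2 had eGFP values of 6.96, 8.33 and 7.57 in pools 1, 2 and 3. Over all 5 groups its range of 6.96 to 7.47 in pool 1 overlapped that of 7.36 to 8.42 in pools 2 and 3. Fn1 and Itga1 spanned 1.84 and 1.10 log2 units over the eGFP pools. These 4 genes of 33 spanned over 1 unit, beside 4.51% of all genes, and the eGFP repeats of 1 pool differed by no more than 0.34 for any of the 4. The median span over eGFP pools was 0.37 for the 33 genes and 0.32 for all genes.

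**Figure D4:**
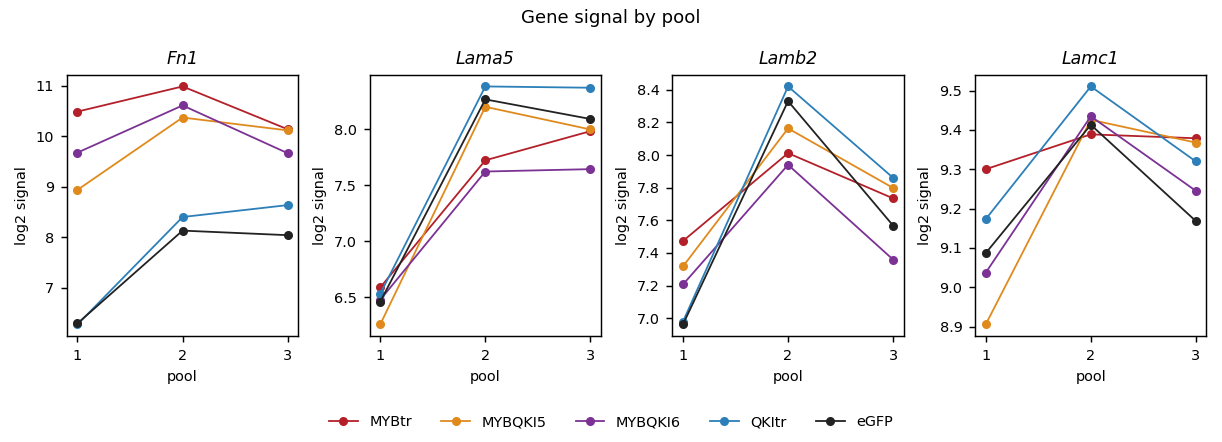
Log2 signal (y axis) of Fn1, Lama5, Lamb2 and Lamc1 by pool (x axis), with a line for each construct. In Lama5 the constructs run together and pool 1 is low (6.26 to 6.59), while in Fn1 the MYB constructs lie above QKItr and eGFP in every pool.

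The nidogens were not called against eGFP. Nid1 stayed between -0.19 and -0.0028 with the MYB constructs. Nid2 was -0.05, -0.36 and -0.32 with MYBtr, MYBQKI5 and MYBQKI6.

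QKItr served as a second comparison for the MYB constructs. Its Qk log2 signal was 11.43, 10.98 and 10.69 in pools 1, 2 and 3, against 10.95, 10.78 and 10.61 with eGFP. QKItr was above eGFP in each pool, but the groups overlapped across pools. How strongly QKItr was expressed is therefore not known from these values. Against eGFP no gene of the 33 was called with QKItr, beside 0% of all genes, without or with the block, and the 33 log2 fold changes ran from -0.36 to 0.28. At an unadjusted p under 0.05 there were 0 of the 33 without the block and 1 with it, beside 362 and 1064 of all 23152 genes. With the mean of the 3 MYB constructs over QKItr, 3 genes were called higher (Fn1, Itga5 and Itga9), beside 1.77% of all genes, and 1 lower (Itgb8), beside 1.17%. The log2 fold changes were 2.34 for Fn1 (adjusted p = 0.0197), 1.21 for Itga5 (0.0134), 0.76 for Itga9 (0.0224) and -1.20 for Itgb8 (0.00575). With Itga9 read from its probe set of highest mean alone, its change was -0.19 (adjusted p = 0.840), so its direction depends on the probe sets used. With the block Itga3 joined the higher genes, for 4 beside 5.8%, and Itgav and Nid2 joined the lower ones, for 3 beside 4.57%. Itgav had 9.33, 9.59 and 10.01 in pools 1, 2 and 3 with MYBtr, 9.05, 9.97 and 9.85 with MYBQKI5, and 9.25, 9.63 and 9.69 with MYBQKI6, against 9.79, 10.23 and 10.11 with QKItr. In each pool all MYB samples were below the QKItr sample, while across pools the groups overlapped; the log2 fold change was -0.45 (adjusted p = 0.339, and 0.0214 with the block). Nid2 had 5.21, 5.40 and 5.16 with MYBtr, 4.81, 4.99 and 5.04 with MYBQKI5, and 4.65, 5.03 and 5.30 with MYBQKI6, against 5.28, 5.69 and 5.64 with QKItr. It showed the same pattern within pools, with a log2 fold change of -0.47 (adjusted p = 0.101, and 0.00748 with the block). The MYB samples entered this comparison and those with eGFP, and all 5 groups were fitted together.

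The 3 MYB constructs were not told apart by these genes. None of the 33 was called between MYBQKI5 and MYBtr, MYBQKI6 and MYBtr, or MYBQKI6 and MYBQKI5, beside 0% of all genes, without or with the block. Unadjusted p-values under 0.05 numbered 0, 1 and 1 of the 33 in these pairs without the block and 3, 2 and 1 with it. Over all 23152 genes they numbered 849, 604 and 404 without the block and 1926, 1437 and 1017 with it. Fn1 was -0.73 for MYBQKI5 over MYBtr, with a 95% interval of -2.03 to 0.57, and -0.55 for MYBQKI6 over MYBtr, with an interval of -1.86 to 0.75. These intervals are wide enough to hold both no difference and a difference of several fold. Itga5 was -0.40 (interval -1.03 to 0.23) and -0.35 (interval -0.98 to 0.27) in the same pairs.

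In the suppression set, Fn1 varied over 2.04 log2 units and was not called between Qk and LacZ suppression. Samples are named by their 2 title numbers. With Qk suppressed, Fn1 was 8.93 in sample 5_2, 10.70 in 6_1, 9.38 in 6_3, 10.97 in 9_1 and 10.02 in 9_3. With LacZ suppressed, it was 10.69, 9.04 and 9.27 in samples 1, 2 and 3. The 3 samples with the second number 1 were the highest, those with the number 2 the lowest, and the groups overlapped. The difference between Qk and LacZ suppression was 0.33, with a 95% interval of -0.72 to 1.38 (adjusted p = 0.999, and 0.828 with the second number as a block). Of the 41 probe sets, 40 were higher with Qk suppressed, with a median difference of 0.30 over the 41. Against the LacZ sample of the same second number, 4 of the 5 Qk samples were higher, by 0.01 (6_1), 0.28 (9_1), 0.10 (6_3) and 0.74 (9_3). Sample 5_2 differed by -0.11. The interval holds both no change and a rise of over 1 log2 unit.

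Itga5 was 5.98, 6.67, 6.63, 6.97 and 6.88 in the Qk samples in the same order, against 7.04, 6.23 and 6.38 with LacZ. The groups overlapped, and the difference was 0.07, with an interval of -0.47 to 0.62. None of the 33 genes was called, beside 0.00432% of all genes, and the count was the same with the block. None of the 33 had an unadjusted p under 0.05, without or with the block, beside 946 and 1734 of all 23152 genes. All 33 differences lay between -0.09 (Lamb3) and 0.33 (Fn1), with a median of 0.08, beside 0.03 over all genes. Nid2 and Itga1 varied by 1.45 and 1.41 over the 8 samples and also moved with the second number.

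**Figure D5:**
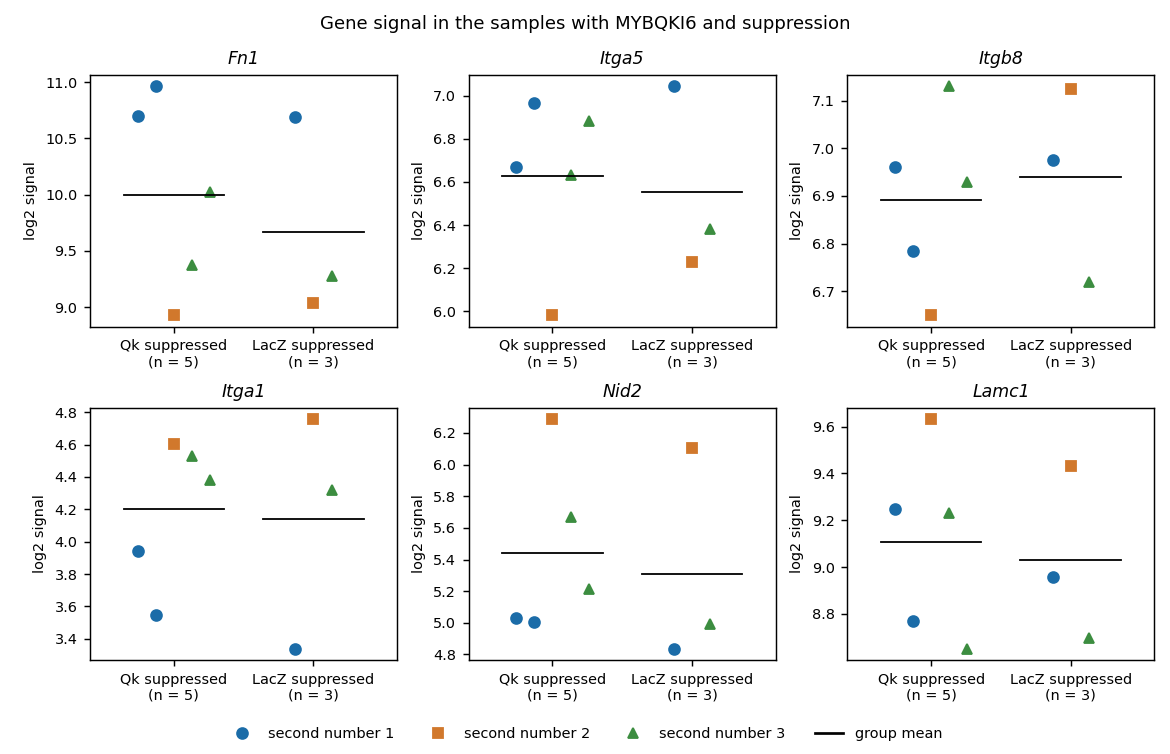
Log2 signal (y axis) of 6 genes in the MYBQKI6 samples with Qk suppressed (5 samples) and with LacZ suppressed (3 samples); markers give the second title number and lines the group means. The Qk and LacZ means lie within 0.33 of each other in all 6 genes, and Fn1 is highest in the samples numbered 1.

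Qk itself bears on this comparison. Its log2 signal was 9.35, 9.30, 9.46, 9.70 and 9.58 in the same 5 Qk samples, against 9.68, 9.70 and 9.74 with LacZ suppressed. The groups overlapped at 1 sample, 9_1, and the difference of -0.22, with a 95% interval of -0.55 to 0.10, was not called (adjusted p = 0.999). Samples 9_1 (9.70) and 9_3 (9.58) had the highest Qk signal of the 5. They also had the largest Fn1 differences from the LacZ sample of their second number, at 0.28 and 0.74. Whether Qk and Fn1 signal were linked was not tested. In the pool set Myb was 6.80 to 7.89 in the samples with a MYB construct, against 4.60 to 5.34 with QKItr and 4.30 to 5.18 with eGFP, as the labels give it. Array medians were 5.61 to 5.74 in the pool set and 5.39 to 5.51 in the suppression set, and no value was compared across the sets. Of the 33 genes, 13 were above the array's median gene signal on every array, including Fn1, Itga5, Itga6, Itgav, Itgb1, Itgb8 and Lamc1. Signal depends on the probes as well as the RNA, so levels of different genes were not compared.

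The proteins that link integrins to actin are a neighbouring part of the pathway. Of 28 such genes, none was called against eGFP with any construct without the block, and 7, 5, 5 and 0 had an unadjusted p under 0.05 with MYBtr, MYBQKI5, MYBQKI6 and QKItr. Of all 23152 genes, 2186, 1575, 1811 and 362 had such a p. With the block 1 was higher and 1 lower with each MYB construct: Actn1, which cross-links actin, was higher in all 3, and the lower gene was Tns2 with MYBtr, Fyn with MYBQKI5 and Src with MYBQKI6. Of all genes, 3.33%, 1.27% and 2.4% were higher with the block with MYBtr, MYBQKI5 and MYBQKI6, and 2.64%, 1.36% and 2% lower. Over QKItr, the 3 MYB constructs had 1 called higher, Actn1 (log2 fold change 0.82, adjusted p = 0.0297), and 2 lower, Fermt2, an integrin activator (-0.51, 0.0322), and the kinase Src (-0.43, 0.0412). Of all genes, 1.77% were called higher and 1.17% lower there. Actn1 averaged 8.41 ± 0.35 log2 units with MYBtr, 8.16 ± 0.15 with MYBQKI5 and 8.19 ± 0.23 with MYBQKI6 (SD, n = 3 each). Its means were 7.43 ± 0.30 in QKItr cells and 7.53 ± 0.41 in eGFP cells. With the block 4 of the 28 were higher and 5 lower over QKItr, beside the 5.8% and 4.57% of all genes given above. The median log2 fold change over the 28 genes was -0.05, -0.06 and -0.02 with MYBtr, MYBQKI5 and MYBQKI6 over eGFP.

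Of 24 other ligands and matrix proteins, none was called against eGFP without the block, with 3, 1, 3 and 0 at an unadjusted p under 0.05 in the same order, and over QKItr 1 was lower, Mfge8, an RGD ligand of alphav integrins (-0.45, adjusted p = 0.0412). With the block Fbln2, a fibulin, was lower with each MYB construct and Sparc was lower with MYBQKI6, and none was higher. Of 15 other matrix receptors and integrin partners, none was called against eGFP without the block, with 5, 2, 4 and 0 at an unadjusted p under 0.05. For both lists the counts and shares over all genes, without and with the block and over QKItr, are those given beside the adhesion genes above. Over QKItr 2 were lower with the MYB constructs: Dag1, the laminin receptor dystroglycan (-0.40, adjusted p = 0.0472), and Ddr1, a collagen receptor kinase (-0.92, 0.0441). With the block against eGFP, MYBtr had 2 higher (Cd151 and Sdc2) and 2 lower (Ddr1 and Sdc3), MYBQKI6 had Ddr1 and Sdc3 lower, and MYBQKI5 had none. No gene of the 3 lists was called with Qk suppression, without or with the block. Without it 2, 2 and 1 had an unadjusted p under 0.05, beside 946 of all 23152 genes.

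Fn1 is also made in quantity by fibroblasts, mural cells and endothelium, and their markers were read in the same samples. Of 10 fibroblast and meningeal, 9 mural and 10 endothelial markers, none was called with any construct against eGFP without the block. With it 1 was, the mural marker Notch3, higher with MYBtr, beside 3.33% of all genes. At an unadjusted p under 0.05 there were 1, 0 and 2 fibroblast markers with MYBtr, MYBQKI5 and MYBQKI6, no mural marker, and 0, 1 and 0 endothelial markers. Over all 23152 genes there were 2186, 1575 and 1811. The mean log2 level of the fibroblast list was 4.81 to 5.01 with MYBtr, 4.82 to 5.03 with MYBQKI5 and 4.81 to 4.97 with MYBQKI6, against 4.73 to 4.89 with QKItr and 4.68 to 4.88 with eGFP. In the MYB groups and in eGFP 2 of the 10 fibroblast markers, Dcn and Lum, were below the 25th percentile of gene signal, and the other 8 were not. The mural list was 5.07 to 5.14 with MYBtr, 5.12 to 5.22 with MYBQKI5 and 5.15 to 5.23 with MYBQKI6, against 4.97 to 5.18 with QKItr and 4.83 to 5.16 with eGFP. The endothelial list was 4.28 to 4.34, 4.25 to 4.39 and 4.27 to 4.43 with the MYB constructs in the same order, against 4.33 to 4.45 with QKItr and 4.36 to 4.43 with eGFP, and 1 of the 10, Emcn, was below the 25th percentile in all 5 groups. No mural marker was below it in these groups.

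Some glial markers were lower in the comparisons in which Fn1, Itga5 and Itgb8 were called. Of 7 astrocyte markers 1, Gfap, was lower with MYBtr (-1.40, adjusted p = 0.0326), beside 0.471% of all genes. With the block 3, 2 and 1 were lower with MYBtr, MYBQKI5 and MYBQKI6, beside 2.64%, 1.36% and 2% of all genes. Called or not, 2 of the 7 had a higher mean than in eGFP with each MYB construct. Their mean level was 5.94 to 6.52 with MYBtr, 5.83 to 6.58 with MYBQKI5 and 6.07 to 6.65 with MYBQKI6, against 6.77 to 6.91 with QKItr and 6.64 to 6.87 with eGFP. Of 8 measured oligodendrocyte lineage markers 1, Cspg4, was lower with MYBtr (-1.34, adjusted p = 0.0273) and with MYBQKI6 (-1.36, 0.0369), and none was called with MYBQKI5. Of all genes, 0.471% were lower with MYBtr and 0.229% with MYBQKI6. With the block 3 were lower with each MYB construct, beside the same shares as for the astrocyte markers. Called or not, 1, 3 and 2 of the 8 had a higher mean than in eGFP with MYBtr, MYBQKI5 and MYBQKI6. Their mean level was 6.16 to 6.41, 6.34 to 6.44 and 6.29 to 6.38 with MYBtr, MYBQKI5 and MYBQKI6, against 6.53 to 6.77 with QKItr and 6.57 to 6.76 with eGFP. Pdgfra, also on the fibroblast list, was 0.69 log2 units higher with the MYB constructs than with QKItr (adjusted p = 0.198, and 0.0206 with the block). Of 9 neuron and 10 microglia and immune markers none was called without the block, and with it Gad1 was lower with MYBtr, Map2 with MYBQKI6 and Cd68 with each MYB construct. The shares of all genes lower with the block are those given beside the astrocyte markers. Of 10 neural stem cell markers none was called without the block, and their mean level was 8.24 to 8.59 over the 15 columns. With the block Nes was lower and Vim higher with each MYB construct, and Sox9 was lower with MYBtr. Of all genes, 3.33%, 1.27% and 2.4% were higher with the block with MYBtr, MYBQKI5 and MYBQKI6. In a culture, fewer cells of a type and less RNA per cell cannot be told apart, and the part of these shifts in the changes of the 6 called genes was not tested.

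Pool 1, where Fn1 and Lama5 were low, was also left out of all groups, which leaves 2 pools a group. Without it 1 gene of the 33, Fn1, was called with MYBtr, beside 0.238% of all genes, and 2 with the MYB constructs over QKItr, Fn1 and Itga5, beside 1.58%. With the block, Fn1 and Itga5 were called with each MYB construct against eGFP, and Itga3, Itga4, Itga9 and Itgb8 with none, beside 1.29%, 0.454% and 0.79% of all genes with MYBtr, MYBQKI5 and MYBQKI6. Itga5 with MYBtr was then 1.56 (adjusted p = 0.0859, and 0.0226 with the block) and Itgb8 -0.89 (0.252, and 0.0647 with the block). Leaving out 1 sample could also cost all 3 genes called with MYBtr their call. This held for eGFP of pool 1, MYBtr of pool 1, MYBtr of pool 2 and eGFP of pool 3, each left out alone. Of all genes, 0.32%, 0.354%, 0.225% and 0.54% were then called, in the same order. With all samples it was 0.898% higher and 0.471% lower. Over all samples left out in turn, the log2 fold changes were 2.45 to 3.37 for Fn1, 1.47 to 1.87 for Itga5 and -1.55 to -1.05 for Itgb8. Without the eGFP sample of pool 2, Itga5 alone of the 3 stayed called, beside 0.281% of all genes. Over QKItr, leaving out its pool 1 sample left only Itgb8 called among the 4 genes, with Fn1 at 1.59 (adjusted p = 0.121). In that setting 1.35% of all genes were called. Leaving out the QKItr sample of pool 2 or that of pool 3 cost 2 of the 4 genes their call each time. Of all genes, 0.916% and 1.84% were then called, against 1.77% higher and 1.17% lower with all samples.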

How the data were processed

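Per the labels, biotin-labelled total RNA was read on Affymetrix arrays. Deposited by the authors were log2 signals, judged from their range of 0.22 to 14.6; the normalization by the authors is not given in the sources used here. The 2 sets had different medians and were never compared. The 26 columns each mapped to 1 sample.

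Of 269751 probe sets, 233753 named 1 gene, 5106 several (5 of them a gene described here, not used) and 30892 none, by an annotation of the array platform. Of the symbols, 20875 were current in RefSeq, 2189 were updated through a synonym and 88 were unmatched. Gene values were fitted in limma 3.58.1 (R 4.3.3, data.table version 1.17.8; lmFit, contrasts.fit, eBayes), with the 15 pool columns in 1 fit and the 8 suppression arrays in another. Figures used matplotlib 3.10.9, pandas 2.3.3 and Python 3.11.15. Error bars and intervals rest on 3 pools a group or on 5 and 3 samples, and the number of arrays limits the precision.

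Deviations from the group mean were shared within a number. Correlations were 0.31 to 0.72 (median 0.53) over 30 pairs of columns from 1 pool and -0.23 (median) over 60 pairs from different pools. In the suppression set they were 0.22 to 0.57 (median 0.32) over 5 pairs sharing the second number and -0.21 (median) over 10 that did not. The pairing comes from the numbers in the sample titles, and values with the number as a block are printed where they change a call.

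The genes, pathway lists and marker lists were chosen with earlier results of these data known. All 33 genes are named, with values in every sample for Fn1, Itga5 and genes called in the same direction in every pool, and up to 4 genes of a pathway list. The alternatives were the block, the probe set with the highest mean, dim genes left out (under the 25th percentile in all groups), quantile normalization, 1 eGFP repeat only, and each sample left out in turn. Leaving out pool 1 and the probe set test with its own spread were added after seeing the data. The planned within-gene test (diffSplice) made false calls in simulated data, in genes to which no change had been added, so the report does not rest on it. The scripts were tested on simulated data.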

Additional observations from a re-analysis of the deposited data

How the results depend on the processing

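The number of the 33 genes called depended on how pools were handled. With the pool as a replicate block it was 6 in place of 3 with MYBtr, 6 in place of 0 with MYBQKI5, 6 in place of 0 with MYBQKI6 and 7 in place of 4 for the MYB constructs over QKItr, since the block takes the differences between pools out of the spread. The calls over all genes rose as well, to 5.97%, 2.63%, 4.39% and 10.4% in the same order. Without the block they were 0.199% with MYBQKI5 and 0.765% with MYBQKI6. With MYBtr they were 0.898% higher and 0.471% lower, and over QKItr 1.77% and 1.17%. With the probe set of highest mean for each gene, it was 1 with MYBtr and 2 over QKItr, beside 0.415% and 1.2% of all genes, and Itga9 over QKItr then had the opposite sign, at -0.19 (adjusted p = 0.840); the cause was not tested. Quantile normalization gave 1 with MYBQKI6, beside 0.881%. With dim genes left out, Itga3 was also called with MYBtr (adjusted p = 0.0497) and over QKItr (0.0492), which made 4 and 5, beside 1.97% and 4.25% of the 18157 genes tested. With pool 1 left out of all groups it was 1 with MYBtr and 2 over QKItr, and with the block as well 2 with MYBQKI5 and 2 with MYBQKI6, with the shares of all genes given in the report. Leaving out each sample in turn gave 0 to 4 with MYBtr, 0 to 1 with MYBQKI6 and 1 to 6 over QKItr, beside 52 to 456, 23 to 244 and 212 to 926 of all 23152 genes. Other comparisons kept a count of 0 under all alternatives run.

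The planned within-gene test called 1 probe set of the 951 in the pool set, with MYBtr and with QKItr (beside 0.0972% and 0.0553% of 231434), and 2 with Qk suppression (beside 0.262%). With a spread of its own per probe set these were 0 and 0, and with the block as well 0 and 0. With Qk suppression, the planned test gave 4 with the replicate block (beside 0.504%) and 4 with dim probe sets left out. Leaving out each sample gave 1 to 2 in the pool set and 0 to 8 with Qk suppression. With 3 pools a group and a median SE of 0.18 log2 units against eGFP, small changes of single genes could not be told from 0.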
